A study of Mus musculus with 8 samples.

Results

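Osmolyte, urea and osmotic stress genes were examined in mouse kidneys taken on postnatal day 8. The set holds 10 genes, chosen by symbol, of the 47729 genes in the deposited tables, and each symbol was found on 1 row. They are the tonicity regulator Nfat5, the osmolyte carriers Slc5a3, Slc6a6 and Slc6a12, the osmolyte enzyme Akr1b3, the urea transporters Slc14a1 and Slc14a2, and the chaperones Hspa1a, Hspa1b and Cryab. RNA-seq libraries from total RNA were made of 4 Six2Cre+KCTD1fl/fl kidneys, labelled as nephron-specific Kctd1 knockout, and of 4 kidneys of control littermates, labelled Wildtype. The labels give neither the floxed nor the Cre status of the control littermates. Six2-driven Cre acts in nephron progenitors, so the deletion covers nephron epithelium, while collecting duct, stroma, vessels and blood cells keep an intact gene. Members of this set are expressed on both sides of that boundary.

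Cells of the kidney medulla live in fluid made hypertonic by salt and urea, and they hold water by accumulating compatible organic osmolytes such as sorbitol, myo-inositol, betaine and taurine. Nfat5, also called TonEBP, is the transcription factor that rises with tonicity and drives genes for osmolyte uptake and synthesis, for urea transport and for heat shock proteins that protect against urea. The newborn rodent kidney concentrates urine poorly, and this medullary programme builds up during the first weeks of life.

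The libraries held 14457760 to 20066225 counts in knockout and 14957478 to 20741076 counts in wildtype. Kctd1, the deleted gene, measured 22.4 to 25.8 CPM (counts scaled to a common library size with TMM factors) in the 4 knockout libraries and 28.9 to 32.6 CPM in the 4 wildtype libraries. It missed the threshold over all genes (log2 fold change -0.38 ± 0.09 SE, edgeR adjusted p = 0.279). All adjusted p are from quasi-likelihood tests in edgeR unless DESeq2 is named, with the Benjamini-Hochberg method over all genes tested. Knockout 2 stood apart in ribosomal RNA, with 5.39% of its counts on the row Rn18s-rs5, against 0.361% to 1.14% in the other 7 libraries. Xist counts were high in 1 library of each genotype, knockout 2 and wildtype 3. Whether the libraries stem from separate animals is not stated in the labels, so a p-value here sets the difference against the spread from library to library.

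Promoter windows in the RefSeq table (GRCm38.p6) were found for 5 of the 10 genes, Nfat5, Slc5a3, Slc6a12, Hspa1a and Hspa1b. Each runs from 250 bases before to 50 bases after a transcript start. The first pair is shown because Hspa1a and Hspa1b are near-identical copies whose reads are hard to part, and capitals mark the heat shock motif GAANNTTC, which reads the same on both strands.
Hspa1a, chr17:34972107-34972406, minus strand: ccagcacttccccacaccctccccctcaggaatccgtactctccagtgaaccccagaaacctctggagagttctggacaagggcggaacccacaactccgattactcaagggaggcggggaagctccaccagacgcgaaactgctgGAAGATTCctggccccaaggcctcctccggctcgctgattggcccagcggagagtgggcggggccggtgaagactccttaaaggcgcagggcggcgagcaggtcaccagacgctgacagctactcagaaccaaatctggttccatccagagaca
Hspa1b, chr17:34959189-34959488, minus strand: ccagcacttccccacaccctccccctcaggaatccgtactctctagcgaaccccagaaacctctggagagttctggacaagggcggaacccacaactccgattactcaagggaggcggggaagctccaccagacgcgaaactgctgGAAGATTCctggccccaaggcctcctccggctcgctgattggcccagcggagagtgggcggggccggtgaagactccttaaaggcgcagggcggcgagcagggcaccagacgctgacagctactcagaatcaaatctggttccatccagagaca
The windows differed at 4 of 300 bases, C44T, T47C, T249G and C276T, with positions counted from 1 at the 5′ end and the Hspa1a base given first. The motif began at position 147 in both. GAANNTTC occurred in 7.86% of all 32851 windows.

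The next pair is shown because Slc5a3 and Slc6a12 are the osmolyte carriers with the smallest p in the comparison of genotypes. Capitals mark TGGAAA, the core of the tonicity-responsive element that Nfat5 binds, searched on both strands. Other NFAT proteins bind the same core.
Slc6a12, chr6:121342324-121342623, plus strand: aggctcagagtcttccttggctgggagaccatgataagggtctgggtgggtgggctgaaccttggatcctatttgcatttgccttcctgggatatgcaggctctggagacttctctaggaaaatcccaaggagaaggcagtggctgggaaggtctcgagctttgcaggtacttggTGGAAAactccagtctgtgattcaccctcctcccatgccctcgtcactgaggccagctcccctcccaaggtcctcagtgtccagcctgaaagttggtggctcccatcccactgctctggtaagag
Slc5a3, chr16:92058072-92058371, plus strand: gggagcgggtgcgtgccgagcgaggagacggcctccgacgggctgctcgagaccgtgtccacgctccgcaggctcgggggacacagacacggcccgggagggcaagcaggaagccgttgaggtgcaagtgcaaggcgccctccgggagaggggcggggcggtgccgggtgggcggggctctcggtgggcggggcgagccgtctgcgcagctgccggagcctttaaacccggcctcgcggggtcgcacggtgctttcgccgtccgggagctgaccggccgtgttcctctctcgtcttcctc
The Slc6a12 window is 1 of 5 for that gene, and the motif begins at position 176 on the plus strand. The other 4 windows of Slc6a12 and those of Slc5a3, Nfat5, Hspa1a and Hspa1b do not hold these letters. TGGAAA occurred in 21.4% of all 32851 windows, so a match describes the sequence and not a bound site. The second heat shock pattern searched, TTCNNGAA, was in none of the 9 windows of these genes and in 8.52% of all windows.

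Levels of the 10 genes spanned a wide range per unit of length. Akr1b3, which encodes the aldose reductase that makes sorbitol from glucose, averaged 191 ± 88.8 TPM (transcript abundance per unit of length, scaled to a common total) in knockout and 246.9 ± 43.5 TPM in wildtype (SD, n = 4 each). Its wildtype mean was higher than or equal to that of 97.2% of the 18548 genes tested. The small heat shock protein gene Cryab, which encodes alpha B-crystallin, came next with 55.8 ± 17.9 TPM in knockout and 68.0 ± 8.86 TPM in wildtype. Nfat5 itself averaged 18.9 ± 2.52 TPM in knockout and 18.1 ± 1.63 TPM in wildtype.

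The taurine carrier gene Slc6a6 lay beside Nfat5, at 17.7 ± 4.01 TPM in knockout and 18.7 ± 3.80 TPM in wildtype, and their wildtype ranges overlapped. Hspa1b followed, at 11.3 ± 3.18 TPM in knockout and 11.5 ± 1.23 TPM in wildtype. Slc14a2, at 10.1 ± 3.63 TPM in knockout and 11.4 ± 1.10 TPM in wildtype, overlapped it. Slc5a3 was at 6.48 ± 1.01 TPM in knockout and 5.01 ± 0.42 TPM in wildtype. The lowest levels were those of Slc14a1, Slc6a12 and Hspa1a, with means of 4.11, 2.14 and 3.17 TPM in knockout and 4.02, 3.89 and 3.29 TPM in wildtype, and each overlapped the next in wildtype. Knockout means kept this order except that Nfat5 passed Slc6a6 and Hspa1a passed Slc6a12. Neighbours in this order other than those said to overlap had separate wildtype ranges. Differences between genotypes are given in CPM below, which carry the TMM factors.

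**Figure D1:**
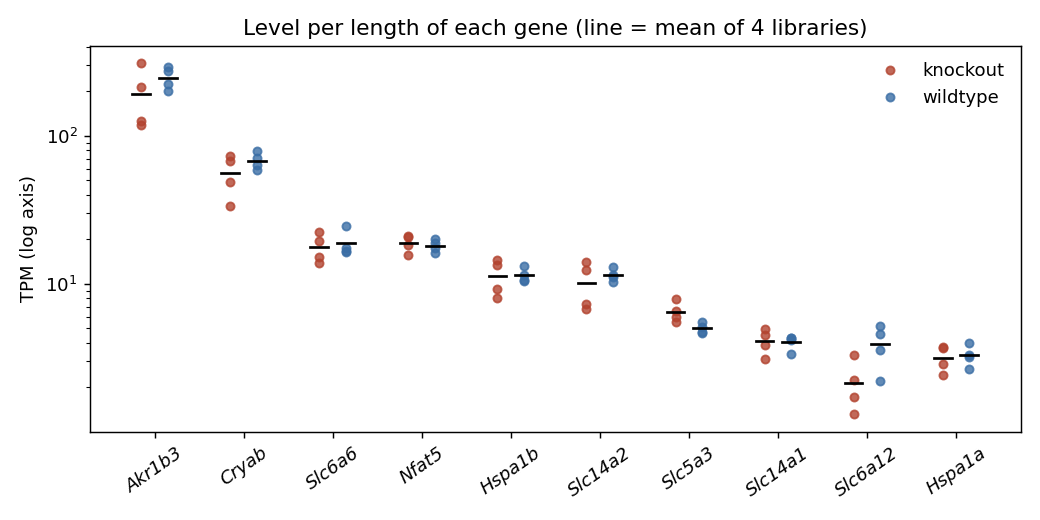
TPM on a log axis for each gene, ordered by the wildtype mean, with 1 point per library, knockout to the left of wildtype and a line at the mean of 4 libraries. Akr1b3 stands above Cryab and the other 8 genes, and Slc6a12 and Hspa1a are the lowest.

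The comparison of genotypes asked which of these transcripts differ when Kctd1 is deleted in the nephron. All 10 were kept by the filter on low counts, and 0 of them passed the threshold with edgeR (adjusted p under 0.05). Over the 18548 genes tested, 0.0809% passed, 0.0323% higher and 0.0485% lower in knockout. At an unadjusted p under 0.05 there were 3 of the 10, Slc5a3 and Nfat5 with higher means and Slc6a12 with a lower mean in knockout, against 6.18% of all genes, 3.11% higher and 3.08% lower. DESeq2, the tool named in the submitters' processing notes, called 1 of the 10, Slc5a3, and 0.847% of all genes. The median log2 fold change of the 10 was 0.07, against 0.0012 over all genes tested, with 6 positive and 4 negative values from -0.75 to 0.52, and 49.7% of all genes were below 0. In whole tissue, fewer cells of a type and less RNA per cell cannot be told apart.

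**Figure D2:**
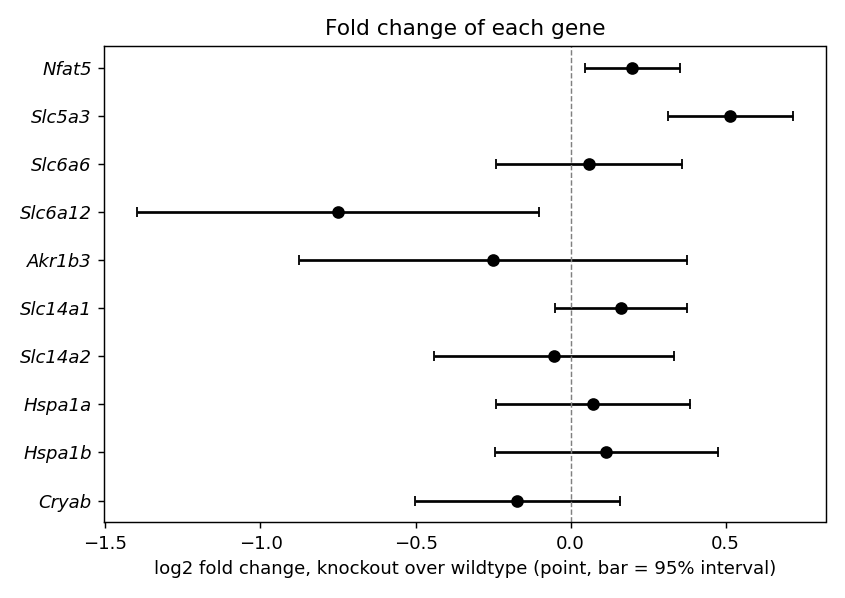
Log2 fold change of each gene, knockout over wildtype, with its 95% interval from edgeR's quasi-likelihood fit. The interval of Slc5a3 (0.31 to 0.72) lies farthest from 0, those of Nfat5 and Slc6a12 also leave out 0, and the other 7 include it.

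Nfat5, the regulator, had a slightly higher mean in knockout kidneys and did not pass the threshold. It is on chromosome 8 from 107293470 to 107379517 (plus strand, GRCm38). It measured 466, 464, 419 and 449.8 CPM in knockout 1 to 4, against 429, 368, 382 and 388 CPM in wildtype 1 to 4. Knockout 3 was below wildtype 1, and the other 3 knockout libraries were above all wildtype libraries. The means of 449.6 ± 21.8 CPM in knockout kidneys and 392 ± 26.4 CPM in wildtype kidneys (SD, n = 4 each) were 1.15-fold apart (log2 fold change 0.20 ± 0.07 SE, edgeR adjusted p = 0.641). Nfat5 is controlled in part through protein amount and nuclear entry, which RNA-seq does not measure.

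Slc5a3, which encodes the sodium and myo-inositol cotransporter SMIT1, showed the clearest separation of the set. The gene lies on chromosome 16 from 92058322 to 92087473 (plus strand, GRCm38). In knockout 1 to 4 it measured 173, 160.4, 134 and 137 CPM, against 108, 102, 100.7 and 111 CPM in wildtype 1 to 4. Every knockout library lay above every wildtype library, and the nearest pair was knockout 3 and wildtype 4. It was the 1 gene of the 10 whose groups did not overlap, where 4.03% of all genes tested had such groups, 1.97% higher and 2.06% lower in knockout. Mean levels were 151 ± 18.6 CPM in knockout kidneys and 106 ± 4.89 CPM in wildtype kidneys (SD, n = 4 each), a 1.43-fold difference. With edgeR the adjusted p over all genes was 0.121 (log2 fold change 0.52 ± 0.09 SE, 95% interval 0.31 to 0.72, unadjusted p = 1.8e-04, rank 28 of 18548). DESeq2 gave a log2 fold change of 0.51 and an adjusted p of 2.3e-04, and edgeR without a filter on low counts gave an adjusted p of 0.0385.

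The call for Slc5a3 thus depended on the test and the filter, and its direction did not. Over the 21 alternatives its log2 fold change ranged from 0.31 to 0.57 and its adjusted p from 2.3e-04 to 0.773. The lowest fold change came from log2(TPM + 1) values, on which the median of all genes was itself shifted to -0.11, so that Slc5a3 stood 0.42 above that median. In TPM the groups overlapped, with 7.85, 5.51, 5.99 and 6.58 TPM in knockout 1 to 4 and 5.14, 4.63, 4.71 and 5.55 TPM in wildtype 1 to 4. Knockout 2 was the library below wildtype 4 on that scale. Its TPM ran low beyond Slc5a3, as 2 other members show, picked after their values were seen. Knockout 2 had the lowest TPM of the 8 libraries for Nfat5 (15.6 TPM) and Slc14a1 (3.10 TPM). In CPM it had ranks 7 and 6 counted from the lowest for these genes.

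**Figure D3:**
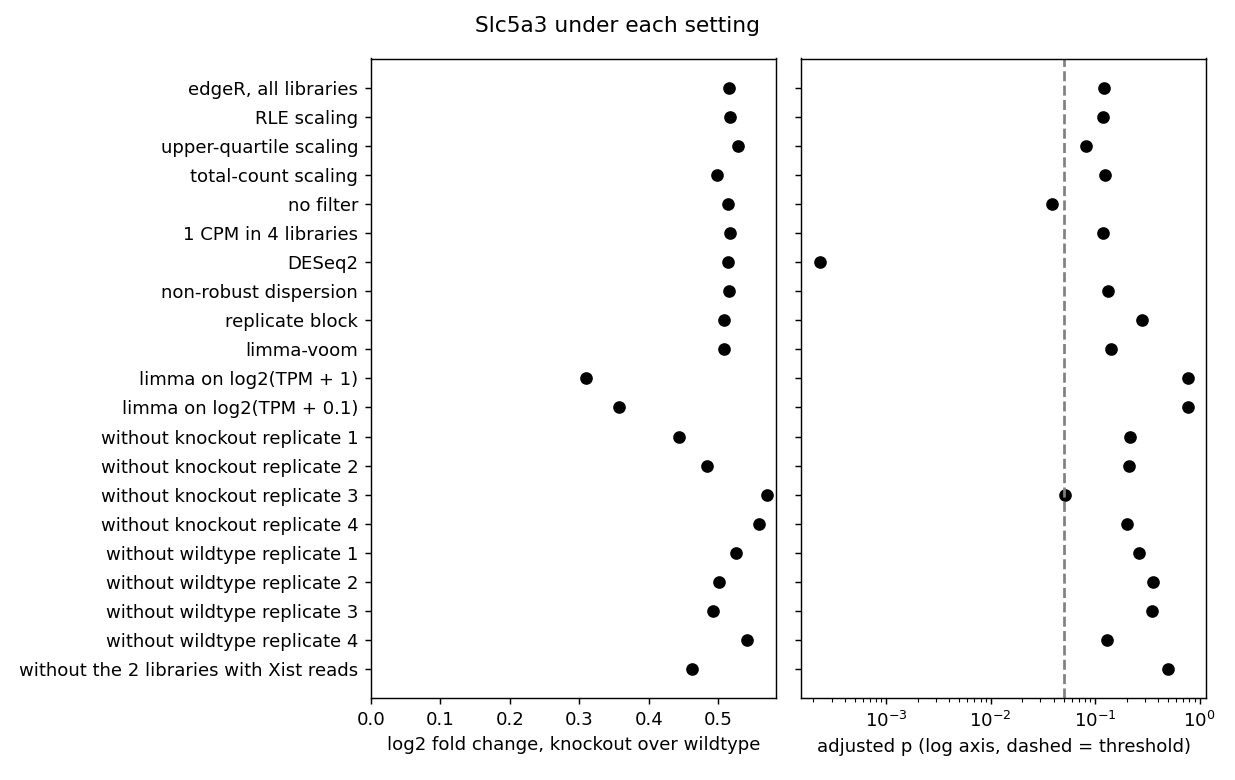
Slc5a3 under the fit to all libraries and 20 of the 21 alternatives, with the log2 fold change (knockout over wildtype) on the left and the adjusted p on a log axis on the right. All fold changes are above 0, and DESeq2 and the fit without a filter are the settings left of the dashed threshold of 0.05.

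Slc5a3 lies within the span of Mrps6, a mitochondrial ribosomal protein gene, and of the gene model Gm49711, both on the same strand. Of the 31-base words in the annotated Slc5a3 transcripts, 1.18% also occurred in Mrps6 transcripts and 1.18% in those of Gm49711, whose level was not analysed here. Mrps6 measured 86.8, 65.8, 93.3 and 82.0 CPM in knockout 1 to 4, against 72.1, 77.3, 75.2 and 63.0 CPM in wildtype 1 to 4. Its groups overlapped, with means of 82.0 ± 11.7 CPM in knockout kidneys and 71.9 ± 6.29 CPM in wildtype kidneys (log2 fold change 0.19 ± 0.11 SE, edgeR adjusted p = 0.859).

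Slc6a12, which encodes the betaine and GABA carrier BGT1, was the weakest osmolyte carrier and the member with the lowest knockout mean relative to wildtype. It lies on chromosome 6 from 121343076 to 121365775 (plus strand, GRCm38). It measured 6.54, 3.50, 3.45 and 4.28 CPM in knockout 1 to 4, against 4.20, 9.22, 6.98 and 9.47 CPM in wildtype 1 to 4. Knockout 1 and knockout 4 were above wildtype 1, so the groups overlapped, and the values rest on 50 to 104 counts per knockout library and 69 to 197 per wildtype library. Knockout kidneys had 59.5% of the wildtype mean, at 4.44 ± 1.45 CPM in knockout kidneys and 7.47 ± 2.45 CPM in wildtype kidneys (log2 fold change -0.75 ± 0.29 SE, edgeR adjusted p = 0.711).

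Slc6a6, the taurine carrier gene on chromosome 6 from 91684053 to 91759066 (plus strand), did not separate the genotypes. Knockout 1 to 4 had 227, 185, 154 and 188 CPM and wildtype 1 to 4 had 169, 168, 162 and 224 CPM. The highest values, in knockout 1 and wildtype 4, were 1 of each genotype. The log2 fold change was 0.06 ± 0.13 SE, with a 95% interval of -0.24 to 0.36 (edgeR adjusted p = 0.976).

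Akr1b3, on chromosome 6 from 34302434 to 34317478 (minus strand), varied most among the well expressed members. It measured 388, 211, 150.3 and 254 CPM in knockout 1 to 4, against 268, 253, 357 and 316 CPM in wildtype 1 to 4. Both the highest and the lowest library were knockouts, and the knockout range enclosed that of wildtype. The coefficient of variation was 40.2% over knockout libraries and 15.9% over wildtype libraries, and the log2 fold change of -0.25 ± 0.27 SE had a 95% interval of -0.88 to 0.38 (edgeR adjusted p = 0.942). It ranged from -0.54 without knockout 1 to -0.07 without knockout 3.

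The urea transporter genes lie next to each other on chromosome 18 (minus strand), Slc14a1 from 78100091 to 78142119 and Slc14a2 from 78146148 to 78596942. Slc14a2 encodes UT-A, the transporter of the inner medullary collecting duct and thin descending limb, and Slc14a1 encodes UT-B of the descending vasa recta and red blood cells. Slc14a2 measured 72.6, 46.5, 38.4 and 61.2 CPM in knockout 1 to 4, against 55.4, 53.5, 57.3 and 60.9 CPM in wildtype 1 to 4. As with Akr1b3, the knockout libraries enclosed the wildtype ones, with a coefficient of variation of 27.9% in knockout and 5.60% in wildtype. Its log2 fold change was -0.05 ± 0.17 SE (edgeR adjusted p = 0.984), and the sign depended on which library was left out.

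Slc14a1 was steadier, at 31.3, 28.6, 27.4 and 33.0 CPM in knockout 1 to 4, against 28.5, 23.7, 28.1 and 27.3 CPM in wildtype 1 to 4. Its coefficient of variation was 8.48% in knockout and 8.22% in wildtype. The groups overlapped and the log2 fold change was 0.16 ± 0.10 SE (edgeR adjusted p = 0.863). Red blood cell markers were present in every library, with a summed level of 2207 to 3068 CPM in knockout and 2135 to 2963 CPM in wildtype, and 7 of 8 had positive fold changes. Of the 8 endothelial markers, 7 had negative fold changes, where 49.7% of all genes tested were below 0. The endothelial markers summed to 1051 to 1168 CPM in knockout and 1162 to 1236 CPM in wildtype. The part of red blood cells or endothelium in the Slc14a1 values was not tested.

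Hspa1a and Hspa1b encode the inducible cytosolic HSP70 and lie close together on chromosome 17, from 34969190 to 34972156 and from 34956436 to 34959238 (minus strand). Hspa1a measured 20.5, 17.9, 16.3 and 20.01 CPM in knockout 1 to 4, against 14.3, 18.6, 21.7 and 16.3 CPM in wildtype 1 to 4. Hspa1b measured 76.5, 64.7, 42.6 and 67.5 CPM in knockout 1 to 4, against 53.8, 55.6, 67.5 and 55.2 CPM in wildtype 1 to 4. Both genes overlapped between genotypes, and neither passed (log2 fold changes 0.07 ± 0.14 and 0.11 ± 0.16 SE, edgeR adjusted p = 0.970 and 0.953). Their transcripts share 63.8% of the 31-base words of Hspa1a and 67.6% of those of Hspa1b, so the split of reads between them is uncertain. Leaving out 1 library moved the Hspa1b value between 0.00623 (without knockout 1) and 0.26 (without knockout 3). With both summed into 1 row the levels were 81.5 ± 16.2 CPM in knockout kidneys and 75.8 ± 9.27 CPM in wildtype kidneys (SD over 4 libraries). Their log2 fold change was 0.10 ± 0.15 SE (edgeR adjusted p = 0.952). Immediate early genes, which respond to handling of tissue, had sums of 148 to 164 CPM in knockout and 147 to 188 CPM in wildtype, and the part of handling in the Hspa1a and Hspa1b values was not tested. Gm20481, a gene model on the strand opposite Hspa1a, averaged 1.57 ± 0.75 CPM in knockout kidneys and 2.89 ± 0.25 CPM in wildtype kidneys, with every knockout library below every wildtype library (edgeR adjusted p = 0.701). It rests on 11 to 65 counts per library and was named after its values were seen. Groups separated in this way, lower in knockout, for 2.06% of all genes tested.

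Cryab, on chromosome 9 from 50751325 to 50756636 (plus strand), measured 141, 86.2, 95.8 and 124 CPM in knockout 1 to 4, against 117, 114, 133 and 139 CPM in wildtype 1 to 4. Knockout 2 and knockout 3 were below all wildtype libraries, and knockout 1 was above all of them. The log2 fold change was -0.17 ± 0.15 SE (edgeR adjusted p = 0.925), and it ranged from -0.30 without knockout 1 to -0.0673 without knockout 2. Hspb2, a small heat shock protein gene that overlaps Cryab on the opposite strand, had 38 to 92 counts in knockout and 56 to 89 counts in wildtype, far below the 1389 to 2886 counts of Cryab. The library kit was directional per the labels' protocols, and the sources used here do not say whether strand was used in counting. Cryab is abundant in muscle, and the 4 of 7 skeletal muscle markers that were tested summed to 2.89 to 3.63 CPM in knockout and 2.87 to 3.99 CPM in wildtype. The part of muscle in the Cryab values was not tested.

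**Figure D4:**
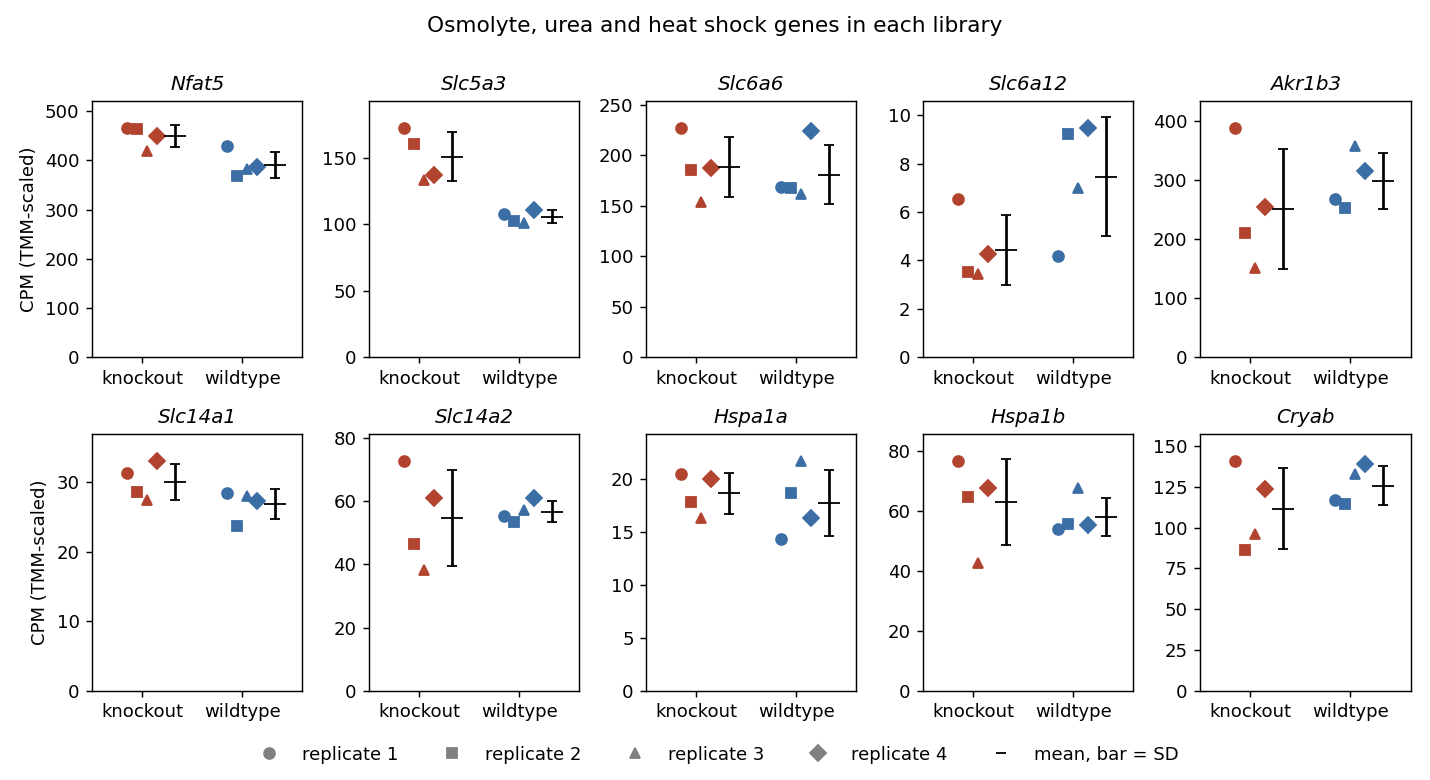
CPM of each gene in every library, with 4 knockout points left of 4 wildtype points, 1 symbol per replicate number, and the mean with its SD beside them. Slc5a3 is the 1 panel in which the groups do not overlap, and knockout points of Akr1b3, Slc14a2 and Cryab spread more widely than wildtype points.

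Several of the genes varied together from library to library, a pattern described after the values were seen. Knockout 2 and knockout 3 were the lowest pair of the 8 libraries for 4 of the 10 genes, Akr1b3, Slc14a2, Cryab and Slc6a12, where 3.74% of all genes tested had that pair lowest. Knockout 1 was the highest library for 7 of the 10, where it was highest for 15.1% of all genes. Relative to the mean of the 8 libraries on the log2 scale, Akr1b3 was at 0.55, -0.32, -0.82 and -0.06 in knockout 1 to 4 and between -0.06 and 0.43 in wildtype. Slc14a2 was at 0.40, -0.24, -0.52 and 0.16 in knockout 1 to 4 and between -0.04 and 0.15 in wildtype. Slc6a12 shared the lowest pair only, since its highest library was wildtype 4 and knockout 1 had rank 5 counted from the lowest. Nfat5 and Slc5a3 had knockout 1 highest but knockout 2 second, and did not follow the rest of this order.

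Markers of medullary and collecting duct cells were read in the same libraries. Aqp2, the vasopressin-regulated water channel of principal cells, which is also known as an Nfat5 target, measured 478, 149, 154 and 202 CPM in knockout 1 to 4, against 192, 202, 190.4 and 175 CPM in wildtype 1 to 4. The 8 principal cell markers were all detected and summed to 1217, 786, 821 and 912 CPM in knockout 1 to 4 and to 831 to 892 CPM in wildtype. That spread lay largely in Aqp2, since the other 7 summed to 739.5, 637, 667 and 710 CPM in knockout 1 to 4 and to 656 to 690.0 CPM in wildtype. Of these 7, knockout 1 was the highest library for 4, and knockout 2 and knockout 3 were the lowest pair for 1. All 9 thin limb markers were detected and summed to 910, 613, 574 and 739 CPM in knockout 1 to 4 and to 747 to 892 CPM in wildtype, but 3 of them are Akr1b3, Slc14a2 and Cryab. The other 6 summed to 269 to 308 CPM in knockout and 314 to 344 CPM in wildtype, with every knockout library below every wildtype library. The part of tissue composition in the spread of Akr1b3, Slc14a2 and Cryab was not tested.

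**Figure D5:**
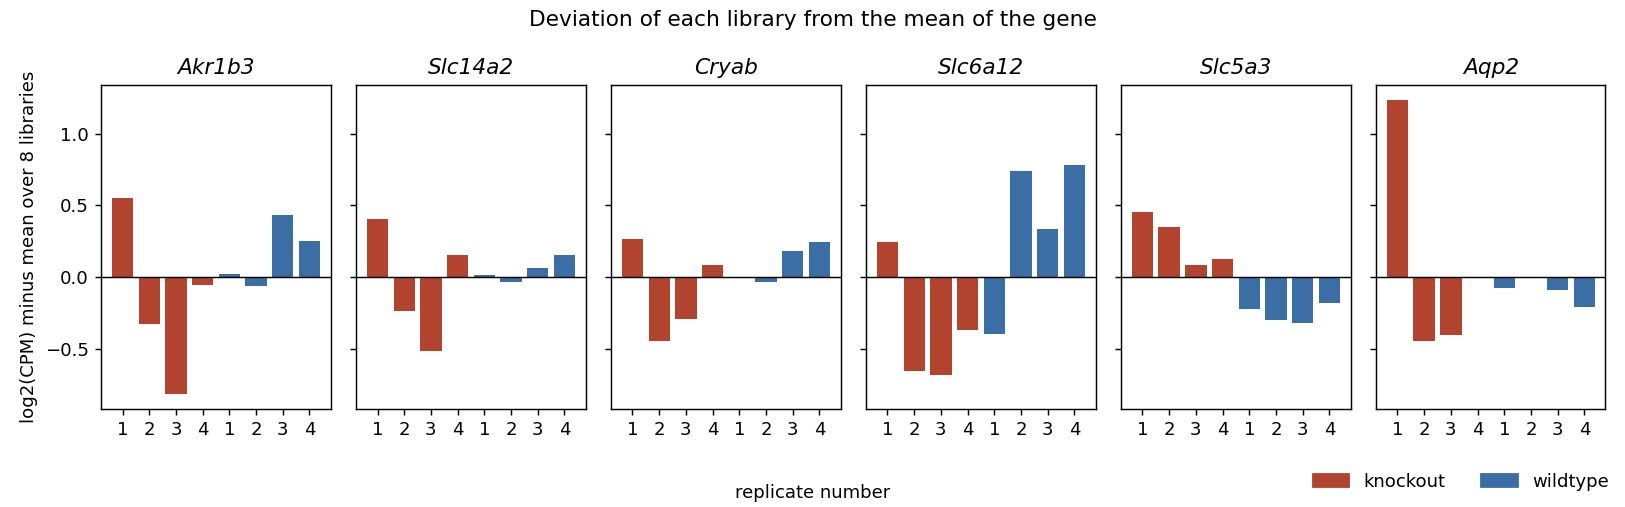
Log2 CPM of each library minus the mean over the 8 libraries for 5 members and Aqp2, with knockout 1 to 4 left of wildtype 1 to 4. Akr1b3, Slc14a2, Cryab and Aqp2 are highest in knockout 1 and below the mean in knockout 2 and 3, while Slc5a3 is above the mean in all 4 knockouts.

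Other genes of the same pathways were read from lists. Of 7 further tonicity-responsive genes 0 passed and 0 had an unadjusted p under 0.05 with edgeR, 0 were called by DESeq2, and their median log2 fold change was 0.05. Hspa4l, an HSP110 family gene induced by osmotic stress, had the smallest p of that list. It measured 36.8, 35.8, 30.2 and 33.7 CPM in knockout 1 to 4, against 22.2, 21.9, 19.0 and 39.9 CPM in wildtype 1 to 4 (log2 fold change 0.40 ± 0.21 SE, edgeR adjusted p = 0.846). Wildtype 4 was thus the highest of all libraries and the other 3 wildtype libraries the lowest.

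Of 16 genes of osmolyte synthesis, breakdown and other carriers, 15 were tested and 0 passed with edgeR or DESeq2, and their median was 0.0049. The unadjusted edgeR p was under 0.05 for 3 of them, 2 higher and 1 lower, against 6.18% of all genes tested. The lower one was Slc44a2, named after its values were seen. It averaged 124 ± 10.9 CPM in knockout kidneys and 141 ± 5.81 CPM in wildtype kidneys, with groups that did not overlap (edgeR adjusted p = 0.775). Sord, the sorbitol dehydrogenase gene that acts after aldose reductase, measured 460.5, 353, 436 and 424 CPM in knockout 1 to 4, against 197, 198, 196 and 418 CPM in wildtype 1 to 4. Wildtype 4 sat among the knockouts, apart from the other 3 wildtype libraries, and the log2 fold change of 0.73 ± 0.26 SE did not pass (edgeR adjusted p = 0.706). Chdh, the choline dehydrogenase gene of betaine synthesis, averaged 129 ± 18.2 CPM in knockout kidneys and 105 ± 10.7 CPM in wildtype kidneys, with groups that did not overlap (log2 fold change 0.29 ± 0.11 SE, edgeR adjusted p = 0.700). The gap was narrow, with knockout 3 at 113.15 CPM and wildtype 1 at 112.2 CPM, and 4.03% of all genes tested had separate groups. In TPM the Chdh groups overlapped, with knockout 2 at 9.44 TPM and wildtype 4 at 11.3 TPM. Knockout 2 ran low on that scale for other genes too, as given for Slc5a3, but knockout 3, at 10.5 TPM, was also below wildtype 4.

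Because Slc5a3 carries inositol, the other inositol genes of that list are given as well, chosen after their values were seen. Slc5a11, the second sodium and inositol cotransporter gene, averaged 25.6 ± 10.5 CPM in knockout kidneys and 18.3 ± 5.33 CPM in wildtype kidneys, with overlapping groups. Isyna1, the inositol synthase gene, averaged 69.5 ± 8.38 CPM in knockout kidneys and 77.0 ± 1.83 CPM in wildtype kidneys. Miox, the oxygenase gene that begins inositol breakdown in proximal tubule, averaged 746 ± 264 CPM in knockout kidneys and 677 ± 195 CPM in wildtype kidneys. These 3 missed the threshold, with edgeR adjusted p of 0.912, 0.859 and 0.972. Impa1, an inositol monophosphatase gene, averaged 75.2 ± 18.1 CPM in knockout and 87.8 ± 7.38 CPM in wildtype. Its paralog Impa2 averaged 30.9 ± 3.27 CPM in knockout and 31.7 ± 1.71 CPM in wildtype. Slc2a13, the proton and inositol carrier gene, averaged 7.40 ± 1.37 CPM in knockout and 7.37 ± 0.39 CPM in wildtype. Groups overlapped for each of these, and edgeR adjusted p was 0.908, 0.981 and 0.999.

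Among 17 genes of the cytosolic heat shock response 0 passed with edgeR or DESeq2, 0 had an unadjusted edgeR p under 0.05, and the median was 0.06. Hspa8, the constitutive HSP70 gene, measured 868, 628, 537 and 599 CPM in knockout 1 to 4 and 522 to 554 CPM in wildtype (log2 fold change 0.28 ± 0.13 SE, edgeR adjusted p = 0.814), so knockout 1 was again the highest library. Of the 7 small heat shock protein genes 5 were tested, 0 passed with either tool, and 4 of the 5 had negative values (median -0.14). The 9 endoplasmic reticulum stress genes had 0 calls with either tool and a median of 0.04.

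The 4 tested of 7 urea cycle and arginine genes all had positive values (median 0.17), and 0 passed with either tool. Arg2, the mitochondrial arginase gene that releases urea, averaged 9.72 ± 0.56 CPM in knockout kidneys and 8.27 ± 1.51 CPM in wildtype kidneys (log2 fold change 0.23 ± 0.15 SE, edgeR adjusted p = 0.895). Of 15 urine concentration genes 0 passed with edgeR. At an unadjusted edgeR p under 0.05 there were 4, 1 higher and 3 lower, against 6.18% of all genes tested. DESeq2 called 3 of that list, 1 higher and 2 lower, against 0.847% of all genes. The list was chosen with earlier results of these data known. Umod, which encodes uromodulin of the thick ascending limb, had the smallest p there (log2 fold change 0.54 ± 0.08 SE, edgeR adjusted p = 0.0599). The 13 cell volume genes had 0 calls with either tool and a median of 0.05. At an unadjusted edgeR p under 0.05, where 3.08% of all genes tested were lower, 2 of the 13 were lower. These were Lrrc8c, a subunit gene of the volume-regulated anion channel, at 27.1 ± 1.62 CPM in knockout kidneys and 32.2 ± 1.88 CPM in wildtype kidneys, and Stk39, the kinase SPAK, at 46.3 ± 8.63 CPM in knockout kidneys and 58.3 ± 3.39 CPM in wildtype kidneys. Neither passed (edgeR adjusted p = 0.598 and 0.706).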

How the data were processed

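Salmon, DESeq2 1.14.1 and mm10 are named in the submitters' processing notes, which give no annotation release. The authors deposited estimated gene counts as whole numbers, and TPM values beside gene identifiers and symbols. The 47729 count rows are unnamed, so they were matched by position to the TPM table's distinct identifiers. In 13251 genes of 50 or more counts per library, log2(count/TPM) had an SD across libraries of at most 0.00851, against a median SD of 0.280 when rows were offset by 1. All sample columns were used.

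Genes were kept with filterByExpr (18548), scaled with TMM and tested with edgeR 4.0.16 (R 4.3.3, quasi-likelihood, robust, genotype alone, two-sided), with Benjamini-Hochberg adjustment over all genes at 0.05. Standard errors are the log2 fold change over the root of F. DESeq2 1.42.0 and limma 3.58.1 were alternatives. All pairs of replicates differed by more than sampling noise (lowest chi-square 11.2 per degree of freedom). On simulated counts for the 18548 genes, knockout over wildtype, the test found 37.3% of 67 genes altered by 1.5-fold, 65.7% of 67 at 2-fold and 92.4% of 66 at 4-fold. It made 141 calls on those counts, of which 11 were false.

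The members and lists were chosen with earlier results of these data known. The genes named are the 10 members, Kctd1, and from each pathway list those past the threshold or at most 2 with the smallest p; others are said to be chosen after their values were seen. 1 gene named by these rules is not reported here. Coordinates come from GENCODE M21 (GRCm38, which mm10 denotes).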

Additional observations from a re-analysis of the deposited data

Results flagged for a closer look

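A library far from the other 3 of its group was found in 2 of 20 sets of 4 libraries, where chance gives about 1 in 20. Slc6a6 measured 224.5 CPM in wildtype 4, against 162 to 169 CPM in the other wildtype libraries. Hspa1b measured 67.5 CPM in wildtype 3, against 53.8 to 55.6 CPM in the other wildtype libraries.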

How the results depend on the processing

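Of 210 fold changes (10 genes under 21 alternatives), 197 kept their direction and their side of the threshold, 2 passed it in addition and 11 reversed, the last among genes whose intervals include 0. Slc5a3 was the 1 member that passed under DESeq2 and without a filter, and 0 passed under any other alternative. On log2(TPM + 1) and log2(TPM + 0.1) values the median of all genes moved to -0.11 and -0.14, and 3 genes reversed that lay above these medians: Slc6a6 (-0.0804 and -0.0849), Hspa1a (-0.0441 and -0.0583) and Hspa1b (-0.0491 and -0.0560). Leaving out 1 library at a time, Slc6a6 ranged from -0.0429 (without knockout 1) to 0.181, Hspa1a from -0.0180 (without wildtype 1) to 0.184, and Slc14a2 from -0.221 to 0.0805, with values above 0 without knockout 2 (0.0149) and without knockout 3. Akr1b3 (-0.54 to -0.07), Cryab (-0.30 to -0.0673), Hspa1b (0.00623 to 0.26) and Slc14a1 (0.11 to 0.20) kept their sign but moved by over 1.5 times. Slc14a2 was at 0.0197 without the 2 libraries with Xist reads, a setting chosen after seeing the data.

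Over all genes, calls numbered 15 (6 higher, 9 lower), 155 with DESeq2 (56 and 99), 27 without a filter (11 and 16), 6 on either TPM scale (3 and 3) and 3 without the libraries with Xist reads (1 and 2). Leaving out 1 library gave 10 to 52 calls (5 to 13 higher, 5 to 39 lower), with 29 without knockout 3 and 52 without wildtype 4, and 0 members called each time. With the replicate number as a block there were 10 calls, 5 of them lower, and 0 members. Same-numbered libraries did not deviate together (correlations -0.08 to 0.04), and among the knockouts only knockout 3 correlated best with the wildtype library of its own number. So few correlations cannot decide whether same-numbered samples were paired by litter or batch. The cause of the shifts in the number of calls was not tested. In simulated counts with 4 libraries a group, changes were missed at 1.5-fold, 2-fold and 4-fold alike, most often at 1.5-fold.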
